A study of Homo sapiens with 4 samples.

Results

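The respiratory chain subunits were followed in 2 human cell lines given estrogen, as single-cell RNA-seq counts. Members were the genes whose symbols match the families NDUFA, NDUFB, NDUFC, NDUFS, NDUFV, UQCR, the COX4 to COX8 subunits with an A, B or C in the name, ATP5, and the MT-ND, MT-CO, MT-CYB and MT-ATP genes. This took 99 of the 33538 genes shared by both lines, namely 82 nuclear genes, all 13 protein-coding genes of the mitochondrial genome, 2 antisense RNAs and 2 readthrough transcripts. The last 4 were left out of sums and medians. Of the nuclear members, 38 belonged to complex I, 9 to complex III, 15 to complex IV and 20 to the ATP synthase, complex V. The rule does not take COX4I1, NDUFAB1, CYC1 or complex II. It does take ATP5S, now named DMAC2L, and ATP5IF1, the inhibitor of the ATP synthase, and it files NDUFA4 by name under complex I although the protein is now counted with complex IV.

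Ishikawa is an endometrial adenocarcinoma line and T-47D a breast carcinoma line. Both were kept in hormone-depleted medium and then given 10 nM 17β-estradiol (E2) for 2, 4 or 8 h, with vehicle as 0 h. The 4 cultures of a line were marked with MULTI-seq, which anchors a DNA tag in the cell membrane, mixed and run as 1 droplet library, so a line and its library cannot be told apart. There was 1 culture per line and time point, so no test was possible, and the intervals below are 95% intervals that cover counting error only. The Ishikawa library also held counts of GFP and tdTomato, at 3.17% to 4.68% of UMIs, the molecular tags by which each captured transcript is counted once. Within the study's limits on UMIs, genes and mitochondrial share, 776, 1480, 892 and 1465 Ishikawa cells were kept at 0, 2, 4 and 8 h, and 1525, 1207, 1341 and 553 T-47D cells. The pools held 12927799 to 33175309 UMIs. The labels matched the markers: PAX8 stood at 94.2 to 126 CPM (UMIs of a gene as a share of all UMIs of the pool, scaled up to a common total) in Ishikawa and at 0 in T-47D, and GATA3 at 444 to 518 CPM in T-47D and at most 0.0335 CPM in Ishikawa. In pooled cells, fewer transcripts per cell and fewer cells that hold a transcript cannot be told apart.

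The respiratory chain passes electrons from NADH and succinate to oxygen and uses the energy to pump protons across the inner mitochondrial membrane, and the ATP synthase makes ATP as the protons flow back. Its complexes I, III, IV and V are built from the products of both genomes. The mitochondrial genome encodes the hydrophobic core subunits and is transcribed as long polycistronic RNAs from each strand, with MT-ND6 the only protein gene on the light strand, while the nuclear subunits are transcribed gene by gene, translated in the cytosol and imported.

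Together the 13 mitochondrial members made up 4.12% of UMIs in Ishikawa and 10.6% in T-47D at 0 h, and the 82 nuclear members 3.11% and 3.44%. The nuclear sums thus lay close in the lines and the mitochondrial sums did not. The ratio of mitochondrial to nuclear counts was 1.33 in Ishikawa and 3.07 in T-47D. By complex this ratio was 1.12 and 2.76 for complex I, 1.00 and 3.42 for complex III, 3.71 and 7.34 for complex IV and 0.265 and 0.929 for complex V. T-47D had the higher ratio in each of the 4 complexes.

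Every one of the 13 mitochondrial members had the higher level in T-47D at 0 h. The median log2 difference was 1.74, against 0.16 for the 74 nuclear members with a mean of at least 10 CPM and -0.19 over 8920 genes. MT-ND3, a small complex I core subunit, stood at 3873 CPM in Ishikawa and 16316 CPM in T-47D, 4.21-fold. The complex I core subunit MT-ND1 differed least of the 13, with 1671 and 2026 CPM, a log2 difference of 0.28 (interval 0.26 to 0.30). The others fell into an upper group of MT-ND2, MT-ATP8, MT-ATP6, MT-ND5, MT-CYB and MT-ND4L at 1.74 to 2.01 and a lower group of MT-CO1, MT-CO2, MT-CO3, MT-ND4 and MT-ND6 at 0.88 to 1.19. The cell limits bear on this directly, because the study kept Ishikawa cells under 7% and T-47D cells under 20% mitochondrial share and the 13 members are the whole of that share. With no such limit, the 13 members summed to 5.27% in Ishikawa at 0 h, and over every tagged singlet to 6.88%, still below T-47D. The T-47D calls hold only cells within the limits, so T-47D cells above 20% were not analysed here. Nuclear copies of mitochondrial sequence and the overlaps of MT-ATP8 with MT-ATP6 and of MT-ND4L with MT-ND4 make the split of reads among these genes uncertain.

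**Figure D1:**
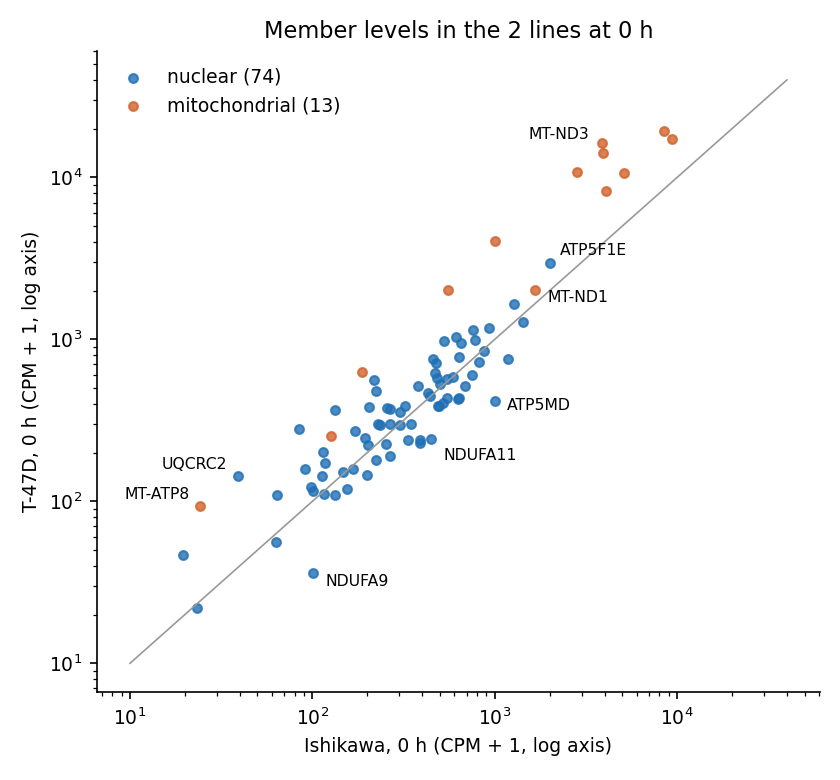
Level at 0 h of each member with a mean of at least 10 CPM, as CPM + 1 on log axes, Ishikawa across and T-47D up, 1 point per gene (blue nuclear, orange mitochondrial), with the line of equal level in grey. All 13 mitochondrial members lie above the line, while nuclear members lie on both sides, 43 of 74 of them above it.

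Among the nuclear members, the most abundant were small accessory or core subunits. In both lines ATP5F1E, the epsilon subunit of the ATP synthase, ranked first, with 1999 CPM in Ishikawa and 2943 CPM in T-47D at 0 h. COX7C of complex IV stood at 1430 and 1274 CPM and NDUFA4 at 1280 and 1646 CPM. ATP5ME and ATP5MD, small membrane subunits of the ATP synthase, completed the top 5 in Ishikawa with 1183 and 999 CPM, and UQCRB of complex III and COX6A1 of complex IV in T-47D with 1166 and 1146 CPM. A UMI marks 1 transcript end, so these levels are not scaled to length. Across genes, which are not replicates, the order of levels was alike in the lines, with a Spearman rho of 0.88 over 74 nuclear and 0.89 over 13 mitochondrial members.

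Single subunits nevertheless differed between the lines by more than the sums. UQCRC2, a core protein of complex III, had 38.1 CPM in Ishikawa and 143 CPM in T-47D, 3.69-fold. NDUFA9, a complex I accessory subunit, went the other way with 99.4 and 35.1 CPM, 2.78-fold higher in Ishikawa. ATP5MD at 2.41-fold, NDUFA11 at 1.83-fold, NDUFA3 at 1.69-fold and COX5A at 1.61-fold were the next on that side. These differences kept their direction at all time points, with log2 differences between the lines of 1.75 to 1.95 for UQCRC2 and -1.72 to -1.48 for NDUFA9.

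Where a subunit has tissue isoforms, the ubiquitous one had the higher level in both lines. The muscle isoforms COX6A2 and COX7A1 had no UMI at any time point in either line, while COX6A1 stood at 755 CPM in Ishikawa and 1146 CPM in T-47D and COX7A2 at 750.5 and 601 CPM. COX6B1 stood at 548 and 567 CPM, against 0.523 and 0.452 CPM for the testis isoform COX6B2. COX8A had 477 and 713 CPM, and COX8C 0.196 and 0 CPM. The testis isoform COX7B2 was detected in T-47D, with 5.46 to 5.88 CPM after E2 beside 415 to 431 CPM of COX7B, and no UMI in Ishikawa. NDUFA4L2, a hypoxia-linked paralog of NDUFA4, had 4.97 to 6.14 CPM in Ishikawa and at most 0.641 CPM in T-47D. COX7A2L, a factor for joining complexes III and IV, had 153 and 119 CPM. The 3 genes for the same c-ring subunit differed in level, with ATP5MC1, ATP5MC2 and ATP5MC3 at 322, 613 and 265 CPM in Ishikawa and 389, 1029 and 369 CPM in T-47D. UQCRHL, an intronless near-identical copy of UQCRH, was counted at 2.48 and 1.06 CPM beside 689.5 and 512 CPM of UQCRH, and its reads cannot be told from those of UQCRH with certainty. Just inside the minimum of 10 CPM lay ATP5S at 18.1 CPM in Ishikawa and NDUFA7 at 21.5 CPM in T-47D, and just outside NDUFA4L2 and COX7B2 with means of 5.55 and 5.51 CPM. In each line 74 of 82 nuclear and 13 of 13 mitochondrial members passed it.

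E2 left the levels of most members close to those at 0 h. Changes are given as log2((CPM + 1)/(CPM at 0 h + 1)), which understates the change of low genes, and a gene was counted as past the fold rule at a log2 change of 0.32 or more in either direction. In Ishikawa 0, 0 and 1 of the 87 members passed this at 2, 4 and 8 h, while among all 7885 genes past the minimum 6.49%, 7.19% and 8.1% did. In T-47D 0 of 87 passed at any time point, against 5.09%, 7.24% and 11.5% of 7440 genes. The counts for the members lay below these background shares. The median half-width of the counting interval was 0.0485 to 0.053 for nuclear members in Ishikawa and 0.157 to 0.173 for all genes.

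Small shifts ran in opposite directions in the lines. In Ishikawa the median change of the nuclear members was 0.04 at 2 h, 0.03 at 4 h and 0.01 at 8 h, and 60, 56 and 42 of 74 were higher than at 0 h, where 45.5%, 46.2% and 50.3% of all genes were. In T-47D the medians were -0.02, -0.02 and -0.02, and 22, 24 and 26 of 74 were higher, against 52%, 47.2% and 51.9% of all genes. The medians over all genes lay between -0.01 and 0.01 in both lines. Scaled to totals that leave out the mitochondrial genes, the nuclear members of Ishikawa gave medians of 0.05, 0.02 and 0.0099. Those of T-47D gave -0.03, -0.02 and -0.03. On totals without GFP and tdTomato the nuclear medians of Ishikawa were 0.02, 0.02 and 0.0038. Those over all its genes were then -0.04, -0.02 and -0.0077. The spread between cultures is not known with 1 culture per time point, so shifts of this size cannot be told from it.

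**Figure D2:**
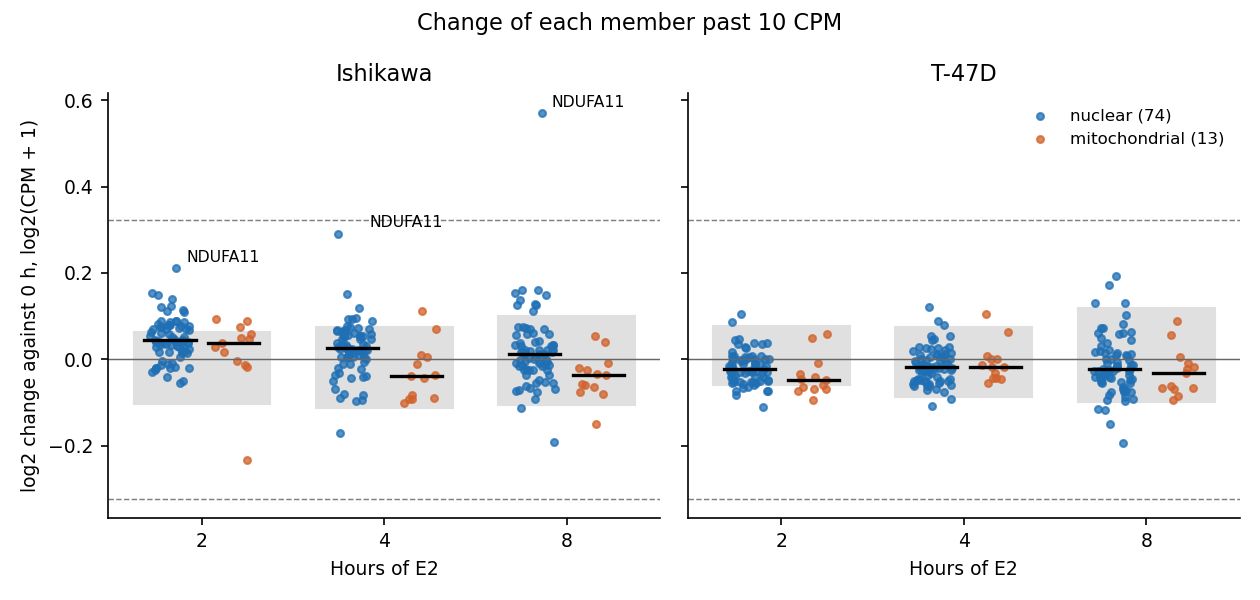
Change against 0 h on the log2(CPM + 1) scale of every member past 10 CPM, by hours of E2, in Ishikawa (left) and T-47D (right). Points are genes, 74 nuclear in blue and 13 mitochondrial in orange, black bars their medians, grey boxes the middle 50% of all genes past 10 CPM, and dashed lines a log2 change of 0.32. NDUFA11 at 8 h in Ishikawa is the only point beyond a dashed line.

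NDUFA11 was the exception. This membrane arm subunit helps to hold complex I together and joins it to complex III. It stood at 443, 514, 543 and 659 CPM at 0, 2, 4 and 8 h in Ishikawa, higher at each step. The changes were 0.21 (interval 0.17 to 0.25), 0.29 (0.25 to 0.34) and 0.57 (0.53 to 0.61). In T-47D the levels were 242, 240, 245 and 236 CPM, with changes of -0.01, 0.01 and -0.04, and the 3 intervals included 0. The Ishikawa levels lay above the T-47D levels at every time point. Under the 13 alternatives tried the 8 h value in Ishikawa ran from 0.56 to 0.68.

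The count per cell moved in the middle of the distribution as well as at its upper end. When cells were thinned to the same 12539 UMIs, with 676 cells per time point, the mean was 5.59, 6.26, 6.89 and 8.52 UMIs of NDUFA11 per cell in Ishikawa, and the median 5, 6, 7 and 8. The share of cells with 10 or more was 8.14%, 13.3%, 19.4% and 36.5%, while cells with at least 1 UMI made up 98.2% to 99.1% throughout. The variance over the mean was 1.48, 1.46 and 1.45 up to 4 h and 2.07 at 8 h. In T-47D, thinned to 14495 UMIs, the mean stayed between 3.45 and 3.61 UMIs.

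NDUFA11 lies on chromosome 19 at 5891229 to 5903790 (RefSeq, GRCh38.p14), on the minus strand. The 250 bases before its start, chr19:5903791-5904040, are shown because it is the only member past the fold rule, with 1 match to the NRF1 motif in capitals, which begins 97 bases before the start:
NDUFA11: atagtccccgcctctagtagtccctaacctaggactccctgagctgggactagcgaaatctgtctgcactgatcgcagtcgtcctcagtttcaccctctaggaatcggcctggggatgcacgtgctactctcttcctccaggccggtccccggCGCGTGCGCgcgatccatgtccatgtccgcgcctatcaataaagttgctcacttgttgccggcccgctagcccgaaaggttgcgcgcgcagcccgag
Neither the palindromic estrogen response element GGTCANNNTGACC nor its 6-base arm AGGTCA was found in the window, on either strand, which says only that these letters are not there.

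The genes beside NDUFA11 were examined after its values were seen. NRTN, which encodes the growth factor neurturin and starts 98.7 kb away, stood at 12.3, 36.5, 40.1 and 50.2 CPM in Ishikawa. CAPS, for calcyphosine, starts 10.5 kb away and stood at 5.10, 8.74, 9.55 and 13.7 CPM. Both were higher than at 0 h at every time point, beyond counting error. VMAC, whose start is the nearest at 1.08 kb, stood at 2.74 to 3.45 CPM and RANBP3 at 17.4 to 18.6 CPM, with intervals that included 0 change. DUS3L, which starts 113 kb away, had 11.2 and 14.9 CPM at 0 and 8 h in Ishikawa and 1.959 and 3.87 CPM in T-47D, with intervals above 0 at 8 h in both. In T-47D NRTN had at most 0.415 CPM and CAPS 2.08 to 2.63 CPM, with no interval that left out 0. Whether these genes share an element with NDUFA11 was not tested.

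**Figure D3:**
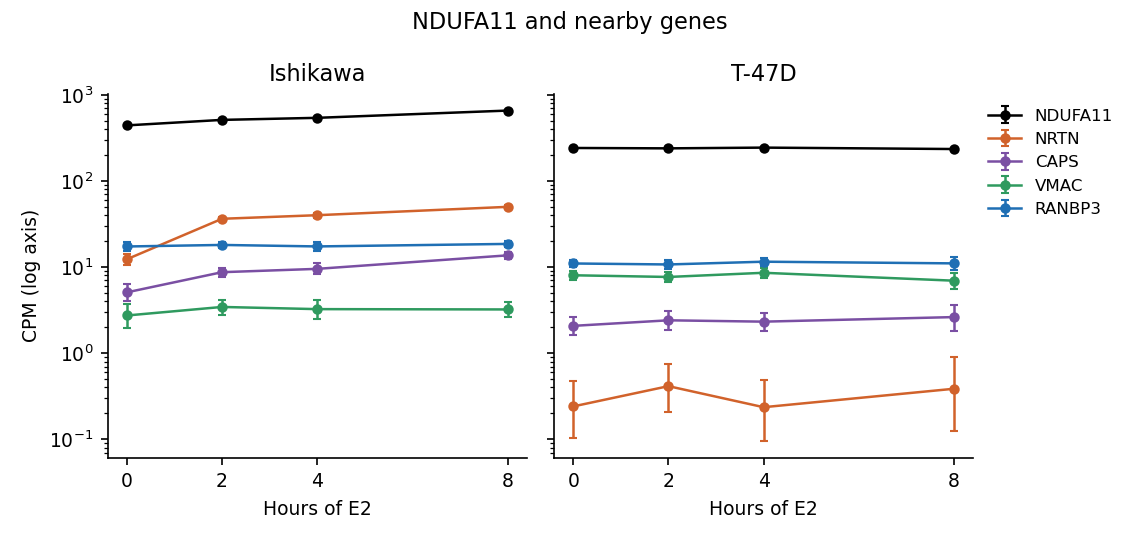
CPM on a log axis of NDUFA11 and 4 genes near it on chromosome 19 by hours of E2, in Ishikawa (left) and T-47D (right), with 95% Poisson intervals for counting error. NDUFA11, NRTN and CAPS climb from 0 to 8 h in Ishikawa, while VMAC and RANBP3 stay level and in T-47D no line climbs beyond its intervals.

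Other complex I subunits moved by less. NDUFV1, the flavoprotein that takes electrons from NADH, had 62.8, 69.9, 69.9 and 66.2 CPM in Ishikawa, with changes of 0.15, 0.15 and 0.08. NDUFB1 was lower at all 3 time points in Ishikawa, with 824, 795, 770.0 and 773 CPM and intervals below 0, and it was the only 1 of 74 nuclear members for which that held, where 5.86% of all genes met the same rule. NDUFS3, a core subunit, gave -0.19 (-0.27 to -0.12) at 8 h in T-47D and 0.15 (0.07 to 0.23) in Ishikawa. NDUFV3, a small flavoprotein arm subunit, stood at 115, 123, 125 and 129 CPM in T-47D, the highest nuclear change there at 2 and 4 h with 0.10 and 0.12, and it was at 99.4 and 98.4 CPM at 0 and 8 h in Ishikawa. NDUFB10 (0.15 at 2 h), NDUFB5 (0.12 at 4 h) and NDUFA9 (0.16 at 8 h) were the other high values of complex I in Ishikawa, and NDUFA10 (-0.05 at 2 h) and NDUFA3 (-0.09 at 4 h) the other low ones.

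In complexes III and IV the electron pathway ends at cytochrome c and oxygen. UQCRB, a complex III subunit at the quinone site, stood at 1166, 1102, 1094 and 1075 CPM in T-47D, lower at each time point beyond counting error, with a change of -0.12 (-0.15 to -0.09) at 8 h. In Ishikawa the same gene stood at 927, 978, 931 and 898 CPM. COX7C went from 1274 to 1192 CPM and COX6C from 953 to 909 CPM in T-47D over 8 h, while COX7A2 and COX7B were higher at all 3 time points in Ishikawa, from 750.5 to 783 CPM and from 549 to 576 CPM. COX7A2L gave the other low value in Ishikawa at 2 h, -0.04. The summed nuclear subunits of complex III changed by 0.05, 0.03 and 0.0018 in Ishikawa and by -0.03, -0.03 and -0.05 in T-47D, and those of complex IV by 0.04, 0.03 and 0.01 and by -0.03, -0.03 and -0.04.

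In Ishikawa 8 of 74 nuclear members had intervals above 0 at all 3 time points, where 6.35% of all genes did. The members have narrower intervals than genes at large, so the shares are not like for like. Of the ATP synthase, ATP5MC1, ATP5MC3, ATP5ME, ATP5MD and ATP5F1B were among them, beside COX7A2, COX7B and NDUFA11. ATP5F1B, the catalytic beta subunit, stood at 635, 675, 657 and 711 CPM, 0.16 (0.13 to 0.20) at 8 h. ATP5MC1 was higher in both lines, from 322 to 352 CPM in Ishikawa (0.13 at 8 h) and from 389 to 444 CPM in T-47D, where its 0.19 (0.15 to 0.24) was the highest nuclear value at 8 h. The other c-ring genes did not share this in T-47D, with ATP5MC2 at -0.03 and ATP5MC3 at -0.01 at 8 h. Next to them, ATP5PB of the stalk gave -0.11 at 2 h in T-47D, against 0.04 for Ishikawa, and ATP5S, at 45.6 CPM in T-47D at 0 h, 0.09, 0.08 and 0.13 with intervals that included 0. ATP5S was the other low value in Ishikawa at 8 h, -0.11 (-0.33 to 0.10). In T-47D 9 of 74 nuclear members had intervals below 0 at all 3 time points and 3 had intervals above 0, where 6.83% and 8.83% of all genes did, the 3 being NDUFB10, NDUFV3 and ATP5MC1.

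For the mitochondrial members in Ishikawa the choice of cells turned the sign of the median at 2 h and moved its size at 4 and 8 h, where it was below 0 in all 3 sets of cells. Within the limits their sum was 4.12%, 4.27%, 3.99% and 3.96% of UMIs at 0, 2, 4 and 8 h and their median change 0.04, -0.04 and -0.04. The limit removed 22.5% of otherwise passing cells at 0 h (interval 19.9% to 25.2%) but 14.5%, 11.4% and 11.1% at 2, 4 and 8 h. With those cells put back, the sum was 5.27%, 4.82%, 4.48% and 4.39%, the median change -0.16, -0.27 and -0.27, and 13 of 13 members were lower at every time point. Over every tagged singlet, which adds cells outside the limits on UMIs and genes, the sum was 6.88%, 5.35%, 5.19% and 5.13%, and 13 of 13 members passed the fold rule downward at each time point, with medians of -0.41, -0.40 and -0.43. Both sets put 0 h highest. Cells above the limit at 0 h had a median of 11574 UMIs against 19121.5 below it. Their nuclear members summed to 25208 CPM of the UMIs outside the mitochondrial genes, GFP and tdTomato, against 34089 below the limit. The same order held at 2, 4 and 8 h. The part of cell quality in the difference between 0 h and the later cultures was not tested.

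**Figure D4:**
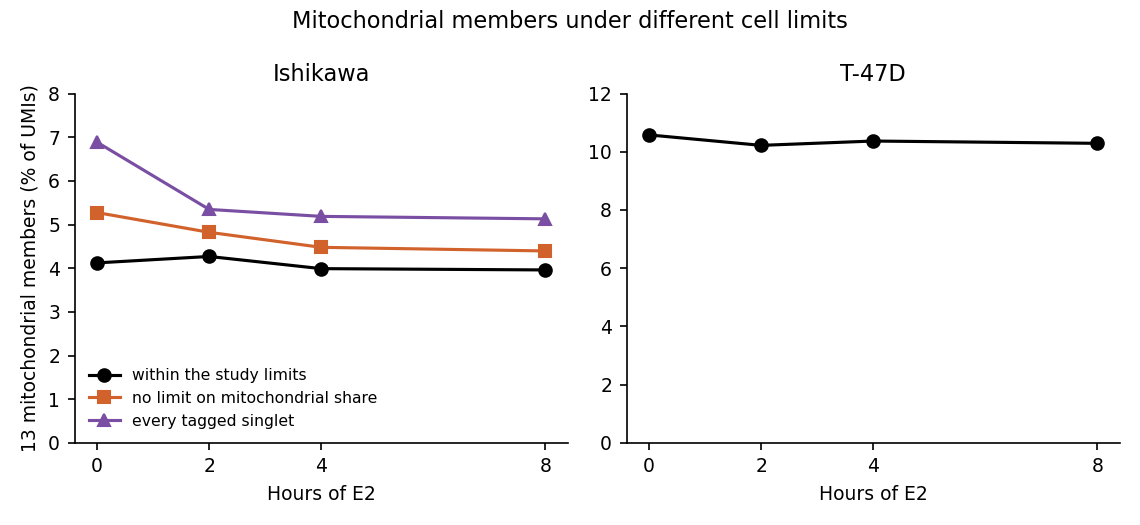
Percent of all UMIs in the 13 mitochondrial members by hours of E2, in Ishikawa (left) within the study limits (black), without the limit on mitochondrial share (orange) and over every tagged singlet (purple), and in T-47D (right), where the calls held only cells within the limits. In Ishikawa the wider sets begin at 5.27% and 6.88% and end at 4.39% and 5.13%, while the kept cells move from 4.12% to 3.96%.

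Gene by gene, the kept cells of Ishikawa showed small moves. MT-CO1, the catalytic core of complex IV and the most abundant of the 13 there, stood at 9381, 9712, 9112 and 8869 CPM. MT-CO2 stood at 8447, 8796, 8381 and 8021 CPM, MT-CO3 between 4793 and 5375 CPM, and MT-CYB, the only mitochondrial gene of complex III, between 3681 and 4177 CPM. In all 4 the level was highest at 2 h. MT-ND3, MT-ND4 and MT-ATP6 were also highest at 2 h, at 3919, 4204 and 2914 CPM. MT-ND1 and MT-ND5 stayed within 1631 to 1671 and 540 to 554 CPM, MT-ND2 within 1008 to 1037 CPM and MT-ND4L within 184 to 196 CPM. MT-ATP8 had the fewest UMIs, 357 at 0 h, and gave the lowest value, -0.23 (-0.44 to -0.05) at 2 h. MT-ND6, from the light strand, stood at 126, 134, 136 and 131 CPM and was 1 of 2 mitochondrial members above 0 h at all 3 time points, the other being MT-ND2.

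The T-47D calls held only cells within the limits, so the effect of the mitochondrial limit could not be read there. The T-47D mitochondrial sum was 10.6%, 10.2%, 10.4% and 10.3%. Of the 13 members, 11, 8 and 10 were lower than at 0 h, with median changes of -0.05, -0.02 and -0.03. MT-CO1 stood at 17288, 16437, 16639 and 16565 CPM and MT-CO2 at 19248, 18620.0, 18686 and 18942 CPM, both below 0 h throughout. MT-ND4 gave the lowest value, -0.09 at 2 h. MT-ND6 again went the other way, with 252, 261, 264 and 268 CPM and changes of 0.05, 0.06 and 0.09, each interval above 0, and MT-ATP8 was also above 0 h, at 93.2 to 100.2 CPM. MT-CO3 and MT-ATP6 differed from 0 h by at most 0.03, and MT-CYB, MT-ND1, MT-ND2, MT-ND3, MT-ND4L and MT-ND5 by at most 0.09. The counts are large, so intervals are narrow, but they leave out the spread between cultures.

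Across single cells the mitochondrial members varied together far more than the nuclear ones. The median Spearman rho over pairs of mitochondrial members of at least 100 CPM was 0.43 to 0.51 over the time points in Ishikawa and 0.71 to 0.74 in T-47D. For nuclear pairs it was 0.10 to 0.14 and 0.15 to 0.18, beside 0.02 to 0.04 in Ishikawa and 0.02 at every T-47D time point for all pairs of genes of that level. As means over time points, mitochondrial pairs had 0.47 in Ishikawa and 0.73 in T-47D, and nuclear pairs 0.12 and 0.17. Pairs of ribosomal protein genes, also abundant, had 0.38 and 0.37. Genes were not matched for level, and the part of level in these values was not tested. All are descriptions over 676 and 519 thinned cells per time point that share a library, with no test. The limit on the mitochondrial share acts on these genes, and without it the Ishikawa mean over time points was 0.55, from 0.47. In Ishikawa the leading mitochondrial pair was MT-CO1 with MT-CO2 at 0.81 (mean over time points), and in T-47D MT-CO1 with MT-CYB at 0.91. The least tied pairs were MT-ND4L and MT-ND6 at 0.14 in Ishikawa and MT-CO1 and MT-ND4L at 0.34 in T-47D.

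Whether nuclear subunits of 1 complex were more alike than subunits of different complexes varied with the complex. Over all 4 complexes, the mean over time points of the median rho was 0.11 within and 0.12 between complexes in Ishikawa and 0.15 and 0.17 in T-47D. Complex V and complex IV pairs stood above the value between complexes, at 0.16 and 0.15 in Ishikawa, where complex I pairs stood at 0.09. The T-47D values were 0.21 for complex V, 0.25 for complex IV and 0.14 for complex I. Complex III pairs stood at 0.12 in Ishikawa and 0.14 in T-47D. Pairs were not matched for level, and the part of level in these differences was not tested. The nuclear members were about as close to ribosomal protein genes, at 0.13 in Ishikawa and 0.12 in T-47D, as to each other, at 0.12 and 0.17. The top pair of each line joined abundant subunits of different complexes, ATP5ME with COX7C at 0.38 in Ishikawa and ATP5F1E with UQCR10 at 0.43 in T-47D. At rank 3 the pairs came from 1 complex as filed here. They were ATP5ME with ATP5MD at 0.36 in Ishikawa and NDUFA4 with NDUFB11 at 0.42 in T-47D. Thinned over nuclear genes alone, the nuclear pairs gave 0.06 and 0.14, beside 0.0028 and 0.01 for all nuclear genes.

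**Figure D5:**
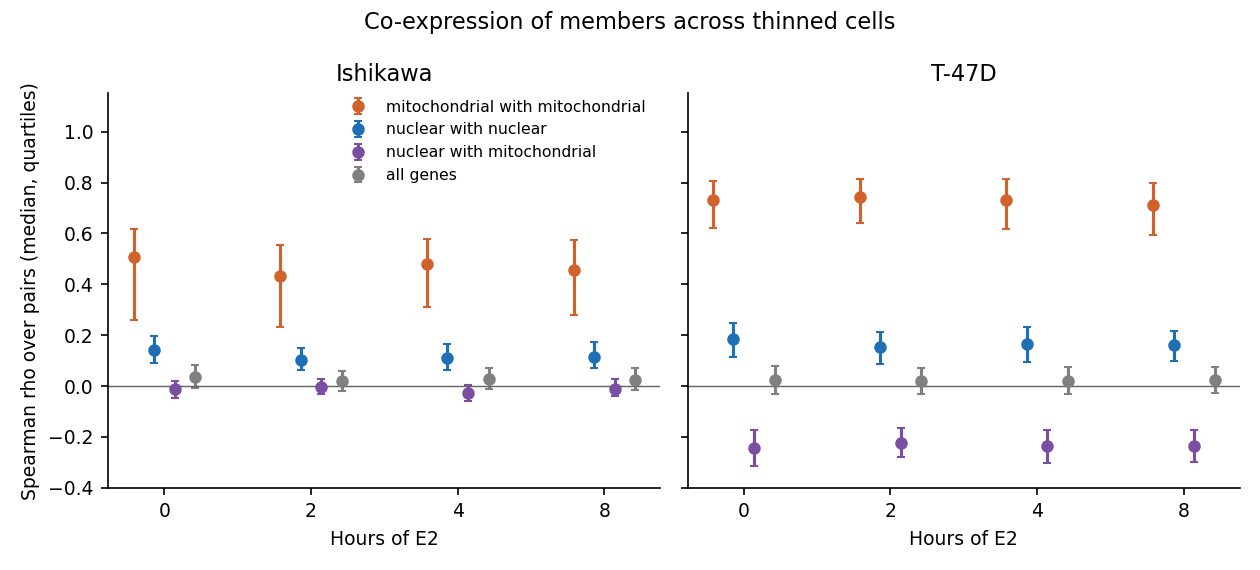
Spearman rho across cells thinned to equal depth, by hours of E2, in Ishikawa (left, 676 cells per time point) and T-47D (right, 519), as the median over gene pairs (points) with the middle 50% of pairs (bars). Mitochondrial pairs (orange) lie highest, nuclear pairs (blue) above all genes (grey), and pairs of a nuclear with a mitochondrial member (purple) near 0 in Ishikawa and between -0.24 and -0.22 in T-47D.

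Across the genomes, the values in Ishikawa turned on the limit on mitochondrial share. Nuclear with mitochondrial pairs had a median rho of -0.03 to -0.0024 in Ishikawa and -0.24 to -0.22 in T-47D, and without the limit -0.09 to -0.03 in Ishikawa. With a fixed number of UMIs per cell, more mitochondrial UMIs leave fewer for other genes, and the part of this in the negative values was not tested. In T-47D mitochondrial members gave -0.10 with all other genes and -0.28 with ribosomal protein genes, beside a mean of -0.23 with the nuclear members. The share of nuclear members among UMIs outside the mitochondrial genes, and in Ishikawa also outside GFP and tdTomato, has a total without those genes. It too ran against the mitochondrial share in T-47D, with a rho across cells of -0.44 to -0.35 over the time points, and -0.11 to -0.03 in Ishikawa. Lifting the limit gave Ishikawa a rho of -0.41 before E2 and of -0.22, -0.28 and -0.17 in time order after it. The first was close to the -0.41 of T-47D at 0 h, but the relation to depth differed. The mitochondrial share had a rho with UMIs per cell of -0.46 in those Ishikawa cells and of 0.06 in T-47D at 0 h. In T-47D cells at 0 h ordered by mitochondrial share in 4 equal groups, nuclear members made up 4.32%, 3.89%, 3.65% and 3.51% of UMIs outside the mitochondrial genes, from the lowest group to the highest. At 8 h the 4 values were 4.18%, 3.89%, 3.64% and 3.37%. The median UMIs of the 4 groups at 0 h were 19873 to 21802, with no order from the lowest share to the highest. In Ishikawa, with GFP and tdTomato also left out of the total, the corresponding values at 0 h were 3.45%, 3.45%, 3.39% and 3.34%. Without the limit the values were 3.45%, 3.44%, 3.37% and 2.59%, the last in a group whose median depth was 11699 UMIs.

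Counts of nuclear members were little more variable from cell to cell than counts of other genes. In thinned cells at 0 h the median variance over mean was 1.42 for nuclear members in Ishikawa and 1.41 in T-47D, beside 1.39 and 1.33 for all genes of at least 100 CPM. Mitochondrial members had 6.64 and 26.5. The ribosomal protein genes, also abundant, had 4.01 and 3.14. MT-CO1 was the most variable member in Ishikawa at 12.2 and MT-ND3 in T-47D at 52.0. Among nuclear members ATP5F1E was highest in Ishikawa at 2.94 and NDUFA4 in T-47D at 3.48. Genes were not matched for level, and the part of level in these values was not tested. The lines also differed in the limit on mitochondrial share, 7% and 20%, and in thinned depth, 12539 and 14495 UMIs. The mitochondrial share itself had a median of 4.12% of UMIs over kept Ishikawa cells at 0 h, with 90% of cells between 2.26% and 6.35%, and of 10.4% over T-47D cells, with 90% between 3.93% and 17.7%.

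The promoters of the nuclear members were read from RefSeq for 67 of 82 genes, as 250 bases before to 50 after the start. Nuclear respiratory factor 1, ETS factors such as GABP and YY1 are known regulators of these genes. The NRF1 motif GCGCANGCG was present in 21 of 67 (31.3%, and 9.02% of all 27303 genes in the table), the ETS motif CCGGAAG in 18 (26.9% and 12.2%) and the YY1 motif AAGATGGC in 11 (16.4% and 3.52%), counting both strands. At least 1 of these 3 motifs was found for 40 of 67 members (59.7%) and for 21.6% of all genes. The full estrogen response element was found in 0 of 67 and in 20 of all genes, and its arm AGGTCA in 18 (26.9% and 16.5%). A match of letters is not evidence of binding, and a gene with several start sites counted if any window held the motif. The windows shown, as the 250 bases before the start with matches in capitals, are those of the pair that led the nuclear co-expression in Ishikawa, of which ATP5ME (chr4:674277-674526, minus strand) has 3 NRF1 matches in the bases printed, with its ETS and AGGTCA matches in the 50 after the start, and COX7C (chr5:86617691-86617940, plus strand) none of the 5 motifs, and ATP5PF (chr21:25735055-25735304, minus strand), a stalk subunit of the ATP synthase and the first of its 2 windows, with NRF1, YY1 and ETS matches:
ATP5ME: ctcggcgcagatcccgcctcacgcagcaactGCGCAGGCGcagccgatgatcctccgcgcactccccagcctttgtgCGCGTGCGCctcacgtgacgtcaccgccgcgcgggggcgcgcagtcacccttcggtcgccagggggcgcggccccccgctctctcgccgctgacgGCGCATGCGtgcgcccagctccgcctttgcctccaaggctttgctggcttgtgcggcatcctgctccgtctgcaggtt
COX7C: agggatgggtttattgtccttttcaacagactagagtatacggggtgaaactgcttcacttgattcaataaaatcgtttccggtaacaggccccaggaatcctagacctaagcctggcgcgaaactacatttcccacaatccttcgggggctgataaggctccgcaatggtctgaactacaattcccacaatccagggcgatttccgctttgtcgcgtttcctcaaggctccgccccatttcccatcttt
ATP5PF: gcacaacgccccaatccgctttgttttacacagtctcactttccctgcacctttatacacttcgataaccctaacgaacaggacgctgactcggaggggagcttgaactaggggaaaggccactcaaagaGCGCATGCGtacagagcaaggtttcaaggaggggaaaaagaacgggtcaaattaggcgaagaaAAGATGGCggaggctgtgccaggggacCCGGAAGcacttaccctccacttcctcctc
The nuclear members lie on 22 chromosomes, with 12 of 82 on chromosome 19.

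Genes of the same pathway outside the rule were read from a list of other subunits, assembly factors and regulators of mitochondrial biogenesis. Of 9 other subunits and the carrier, 8 passed the minimum in each line and none passed the fold rule. CYCS, cytochrome c, came closest in both lines, at 461 and 573 CPM at 0 and 8 h in Ishikawa and 265 and 325 CPM in T-47D, with changes of 0.31 (0.27 to 0.35) and 0.29 (0.24 to 0.35) at 8 h. Of 26 assembly factors, 24 passed the minimum in Ishikawa and 22 in T-47D. COX10 passed the fold rule downward at 2 h in Ishikawa, -0.38 (-0.69 to -0.14), on 182 and 266 UMIs at 0 and 2 h. At 8 h 1 in each line passed it, NDUFAF4 at 0.41 in Ishikawa and NDUFAF2 at 0.34 in T-47D. Among all genes past the minimum, 6.49%, 7.19% and 8.1% passed it at 2, 4 and 8 h in Ishikawa. In T-47D the shares were 5.09%, 7.24% and 11.5%. Of 10 regulators of biogenesis, 7 passed the minimum in Ishikawa and 5 in T-47D. ESRRA, the estrogen-related receptor alpha, stood at 13.6, 16.9, 20.2 and 20.04 CPM in Ishikawa, 0.53 (0.33 to 0.79) at 8 h. It stood at 24.5 and 20.1 CPM at 0 and 8 h in T-47D, -0.27 (-0.49 to -0.08). PPRC1, a coactivator of the PGC-1 family, passed the fold rule at 4 and 8 h in Ishikawa, with 24.7 and 33.8 CPM at 0 and 8 h, and at all 3 time points in T-47D, with 8.44, 15.0, 12.8 and 13.1 CPM. PPARGC1B stood under the minimum at 3.92, 9.48, 9.76 and 9.10 CPM in Ishikawa and 1.90 to 2.60 CPM in T-47D.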

How the data were processed

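The deposited matrices hold UMI counts per gene and barcode, which the authors made with Cell Ranger 3.1.0 on hg38, per the processing notes, with time points called by the demultiplex R package. Cells were kept within the limits of the study's methods, for Ishikawa 8500 to 35000 UMIs, 2700 to 6000 genes and a mitochondrial share under 7%, and in T-47D a mitochondrial share under 20%, 7500 to 40000 UMIs and 1500 to 6000 genes. Barcodes called as doublets by their tags were left out (1906 and 1442), and pairs with the same tag were not detected. Counts were summed into 8 pools and scaled to CPM, with a pseudocount of 1 and a minimum of 10 CPM. Intervals were exact Poisson, exact conditional for ratios and Clopper-Pearson for shares. Cells were thinned for rank correlations to the 10th percentile of UMIs, leaving out 34 to 194 shallower cells per time point. Scripts were tested on simulated data (Python 3.11.15, scipy 1.17.1, edgeR 4.0.16 for TMM factors). Members and lists were chosen with earlier results of these data known. The genes named were all mitochondrial members, the 5 highest and 3 lowest levels, the 3 highest and lowest changes per time point, those past the fold rule, the 5 largest differences between lines each way, isoform groups and leading pairs. The lines shared 80 barcode sequences, 5 of them among kept cells. The values of 1 gene that the rule for named genes takes are not reported here.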

Additional observations from a re-analysis of the deposited data

Results flagged for a closer look

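The median change of the 74 nuclear members was above 0 at all 3 time points in Ishikawa, at 0.045, 0.027 and 0.012 on the log2 scale, and below 0 at all 3 in T-47D, at -0.023, -0.018 and -0.023. It stands here because the lines moved in opposite directions. The difference was not tested, since each line and time point was 1 culture and the 3 time points of a line share their 0 h culture. The size of the Ishikawa medians depended on the totals. Without GFP and tdTomato in the totals they were 0.022, 0.016 and 0.0038, and with TMM factors 0.082, 0.062 and 0.039. In cells under 1% GFP, an alternative chosen after seeing the data, they were 0.022, 0.0097 and 0.0052. The medians over all Ishikawa genes moved with the totals too. They were -0.014, -0.012 and 0.0015 on the main totals and -0.036, -0.023 and -0.0077 without GFP and tdTomato. With TMM factors they were 0.023, 0.023 and 0.027.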

How the results depend on the processing

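No paired analysis was possible because each line and time point was 1 culture, and no replicate could be left out. Of 236 values under alternatives for medians, counts and co-expression, 194 stayed within a set tolerance. For medians it was the median half-width of the members' counting intervals, and for counts 1.5 times the count. For co-expression it was a set width in rho, 0.0756 in Ishikawa. The Ishikawa nuclear median at 2 h was 0.045 with a tolerance of 0.049, so 0.086 without the mitochondrial limit counted as unmoved. Nuclear pairs there went from 0.12 to 0.062 when thinned over nuclear genes and also counted as unmoved. Small values could thus change much and still be among the 194. Part of the 194 could not have moved. Lifting the mitochondrial limit, or using every tagged singlet, returned the same 4626 T-47D cells. The T-47D medians and counts under these alternatives are therefore equal to the main ones by construction. T-47D co-expression without the limit could differ only through the thinning. These values do not bear on how stable the results are. The mitochondrial medians in Ishikawa at 2, 4 and 8 h were -0.16, -0.27 and -0.27 without the mitochondrial limit and -0.41, -0.40 and -0.43 over every tagged singlet. TMM scaling gave them as 0.076, -0.0025 and -0.0095, and scaling by the median of ratios as 0.072, 0.0014 and -0.0070. The medians over all Ishikawa genes moved too, from -0.014, -0.012 and 0.0015 on the main totals to 0.023, 0.023 and 0.027 under TMM. Under the median of ratios they were 0.019, 0.026 and 0.030. In all of these the mitochondrial median lay above that of all genes at 2 h and below it at 4 and 8 h. At 2 h the mitochondrial median was 0.015 on totals without GFP and tdTomato, and at 8 h it was -0.054 as a mean over cells. With cells under 1% GFP, an alternative chosen after seeing the data, it was -0.062 at 4 h and -0.055 at 8 h. The nuclear medians there were 0.14, 0.11 and 0.10 over every tagged singlet. In T-47D the mitochondrial median at 2 h was -0.032 with the lower UMI limit, -0.058 with TMM factors and -0.034 as a mean over cells. Median-of-ratios scaling gave -0.0017 at 4 h, and TMM gave -0.049 at 8 h. The medians over all T-47D genes shifted as well. Median-of-ratios scaling took them from -0.0075 to 0.0075 at 4 h. TMM took them from 0.0052 to -0.0045 at 2 h and from 0.0063 to -0.010 at 8 h. Members past the fold rule in Ishikawa numbered 2, 2 and 3 without the mitochondrial limit (MT-ND6 at all 3, MT-ATP8 at 2 and 8 h, NDUFA11 at 4 and 8 h) and 14, 14 and 14 over every tagged singlet (NDUFA11 and the 13 mitochondrial members), 1 at 4 h with TMM or median-of-ratios factors (NDUFA11), and 0 at 8 h with a fold of 1.5. With no minimum on level there were 1 at 2 h and 2 at 8 h in Ishikawa, where ATP5MGL joined at under 1 CPM, and 1 at 2 h in T-47D, COX6B2. With no thinning, where depth enters, the rho values were 0.37, 0.62 and 0.20 in Ishikawa for nuclear, mitochondrial and mixed pairs, and 0.34 for nuclear and 0.012 for mixed pairs in T-47D. Mitochondrial pairs in Ishikawa gave 0.55 without the mitochondrial limit.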

Other observations

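The 4 matched features that are not subunit genes had few counts. NDUFB2-AS1 and NDUFV2-AS1, antisense to their namesakes, stood at 4.12 and 3.79 CPM at 0 h in Ishikawa. Their T-47D levels were 1.025 and 1.18 CPM. The readthrough transcripts ATP5MF-PTCD1 and NDUFC2-KCTD14 had 3 and 1 UMIs at 0 h in Ishikawa, against 1 and 0 for T-47D.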
